A study of Mus musculus with 9 samples.

Results

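The 3 arrays of a Suv420h1-null mouse embryonic fibroblast line were set against the 6 arrays of a wild-type line, which together are 9 of the 9 arrays of the study. Arrays were assigned by the line named in their labels, and every gene measured on them was considered, with most attention to genes whose signal ranges over the 3 and the 6 arrays did not overlap. The null line came from E13.5 embryos without Suv420h1 and was hybridised untransduced, carrying GFP, and carrying a Suv420h1-GFP fusion, so 1 of its 3 arrays holds cells given the gene back. The wild-type line came from embryos of the same age and was transduced with lentivirus for GFP, LacZ, full-length PREX2, or PREX2 with a stop codon at K278*, E824* or Q1430*. Both lines were spontaneously immortalised. Each genotype was represented by a single line, so line and genotype cannot be told apart. Within a line the arrays differ in construct and no construct was repeated. Whether any arrays represent independent cultures is not stated, so each p-value reflects only how far these arrays scatter, which may be technical. In RNA from whole cultures, fewer cells of a type and less RNA per cell cannot be told apart.

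Suv420h1, now Kmt5b, is one of a pair of enzymes with Kmt5c that add the second and the third methyl group to lysine 20 of histone H4. The form with the third methyl group is a mark of heterochromatin. Kmt5a adds the first. Embryonic fibroblasts lay down collagen-rich matrix and keep the HOX code of the body region they came from. On serial culture they usually stop dividing until rare cells escape, commonly after loss of the Cdkn2a and Cdkn2b inhibitors or of p53 function, and lines that escape independently often carry different chromosome gains and losses.

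The values are array signals on a linear scale, scaled so that the trimmed mean was 500 on every array. Tests covered the 19090 probe sets (10177 genes) with an average signal of 100 or more, and differences are log2(signal + 25), null line minus wild-type line. Values of the 3 null-line arrays are given as untransduced, GFP and Suv420h1-GFP. Line was the first principal component with 69.6% of the variance. The number of probe sets over 2-fold apart was 2137 to 2877 for pairs of arrays from different lines. Within the null line it was 81 to 259, and within the wild-type line it was 65 to 1914. The upper end of the last range came from the wild-type GFP array, which stood apart from its line and had the lowest fitted array weight (0.207), followed by K278* (0.514). Signal ratios between 3' and 5' probe sets of Actb were 1.15 to 1.21 in the null line and 1.18 to 1.36 in the wild-type line.

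The cells of both lines carried fibroblast transcripts. All 17 fibroblast markers passed a signal of 100 on at least 1 array, and their summed signal was 214132 to 233910 in the null line and 206864 to 293040 in the wild-type line. Col1a2, Col3a1, Sparc, Postn, Vim and Fn1, all abundant products of these cells, read at least 17093 on every array. Of the 17, 2 stayed under 100 on all 3 null-line arrays. The surface glycoprotein Thy1, described among the genes with the widest gaps, was close to background there, and the matrix proteoglycan Lum read 48.6 to 75.02 in the null line against 24.0 to 525 in the wild-type line, with overlap. Of the 17 markers 0 rose and 3 fell (17.6%), beside 20.7% and 23.2% of all tested genes. However, 8 fell without the wild-type GFP array, 5 without K278* and 13 without both. Leaving out either the untransduced or the Suv420h1-GFP null-line array, or any of the other 4 wild-type-line arrays, left 1. Among markers of other cell types, the macrophage list summed to 755 to 809 in the null line against 1180 to 1462 in the wild-type line, mostly Csf1r and Cd14, with Ptprc, Itgam and Aif1 at or below 45.3 everywhere. The neural list summed to 388 to 553 against 1238 to 2352, mostly Map2 and Tubb3, while Sox2, Dcx and Olig2 stayed at or below 29.4. The cartilage list summed to 1120 to 1648 against 805 to 967. The muscle list summed to 33304 to 37592 against 41667 to 50906, mostly Acta2 and Tagln, with Myog and Myf5 at or below 29.8. The adipocyte list summed to 10382.5 to 13597 against 2772 to 11150, mostly Lpl, with Cd36 and Lep at or below 15.2. The epithelial list summed to 607 to 659 against 663 to 778 and the endothelial list to 888 to 1080 against 672 to 957, with Krt14 and Pecam1 at or below 32.7. Other members were brighter. Epcam read 255 to 432 in the null line against 162 to 301, and Krt19 46.6 to 89.1 against 209 to 374. For endothelium Eng read 536 to 667 against 121 to 224, and Tek 43.4 to 91.3 against 55.0 to 488. The part of any admixed cells in the results was not tested.

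The targeted gene was examined first. At the brightest of 4 tested Kmt5b probe sets the signals were 442, 432 and 328 on the null-line arrays, against 295 to 469.6 (median 435) on the wild-type-line arrays (log2 difference -0.05, SE 0.156, adjusted p = 0.831 in limma). The groups overlapped there. A dimmer Kmt5b probe set read 8.85 untransduced and 17.3 with GFP, but 150.3 with Suv420h1-GFP, against 118 to 182 (median 144) on the wild-type-line arrays (log2 difference -1.43, SE 0.420, adjusted p = 0.0179). Only the array given the gene back reached the wild-type range. The 2 remaining probe sets differed by -0.56 (adjusted p = 0.0137) and 0.80 (adjusted p = 0.00073), both without overlap. The exons covered by each of them are not known here, and one lying beyond the deletion checks nothing.

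At the other enzymes of this lysine the differences were under 0.5 on the log2 scale. Kmt5c read 266, 229 and 214 on the null-line arrays, against 207 to 301 (median 235) on the wild-type-line arrays (log2 difference -0.03, SE 0.132, adjusted p = 0.866). Kmt5a differed by -0.23 (adjusted p = 0.219) at its brighter probe set and by -0.47 (adjusted p = 0.0177) at its dimmer one. The probe set of Prex2, the exchange factor whose variants the wild-type line was given, read 320.5, 323 and 198 on the null-line arrays. On the wild-type-line arrays it read 452 to 809 (median 713), with no overlap (log2 difference -1.24, SE 0.196, adjusted p = 0.000518 in limma). It is not known here whether the introduced PREX2 is read by this probe set, and the GFP and LacZ arrays, which carry no PREX2 construct, had the lowest wild-type values (452 and 677). With the untransduced and GFP null-line arrays against these 2 arrays only, the difference was -0.74 and was not called (adjusted p = 0.112).

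Between the lines 8285 of 19090 probe sets passed limma at an adjusted p below 0.05 (43.4%), 4219 higher and 4066 lower in the null line. With 1 probe set per gene, the brightest, 2108 of 10177 genes rose (20.7%) and 2361 fell (23.2%). The ranges of the 3 and 6 arrays did not overlap for 4217 genes (41.4%), of which 2071 were higher (20.3%) and 2146 lower (21.1%) in the null line. Both conditions held for 3878 genes (38.1%). Their median absolute log2 difference was 0.65, and 540 of them were over 2-fold higher and 458 over 2-fold lower. Over 8-fold there were 79 higher and 44 lower, and over 32-fold 16 and 4. The other tested probe sets of these genes numbered 2806, of which 1786 passed in the same direction and 77 in the opposite one. The edge of the definition is fine: Tnfaip1 reached a lowest null-line signal of 4386 against a highest wild-type signal of 4386, and Slc2a10 missed with 283 against 283. On the lower side Rplp2 was just inside and Zbtb33 just outside. The call of Tnfaip1 ended without any of the 3 null-line arrays, LacZ or Q1430* (0.31 to 0.37), that of Slc2a10 without any null-line array, LacZ, PREX2 wt, K278* or E824* (0.33 to 0.40), and that of Zbtb33 without the untransduced (-0.31) or GFP null-line array (-0.26).

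The widest gap among genes higher in the null line belonged to C1qtnf3, a secreted C1q/TNF-related protein also known from cartilage. Its signals were 20601, 18639 and 17532 on the null-line arrays, against 40 to 80.8 (median 60.5) on the wild-type-line arrays. Every null-line array was far above every wild-type-line array (log2 difference 7.81, SE 0.14, adjusted p = 6.49e-11). Cdkn2a, which encodes INK4a, an inhibitor of Cdk4 and Cdk6, and ARF, which stabilises p53, read 3363, 4308 and 3846 on the null-line arrays, against 0.925 to 15.9 (median 3.99) on the wild-type-line arrays. Its neighbour Cdkn2b, which encodes the related inhibitor INK4b, read 1565, 1741 and 1182 on the null-line arrays, against 2.04 to 7.17 (median 4.17) on the wild-type-line arrays. Both were at background on every wild-type-line array and strongly expressed on every null-line array (log2 difference 7.0, SE 0.165, adjusted p = 5.87e-10 for Cdkn2a and log2 difference 5.67, SE 0.155, adjusted p = 1.68e-09 for Cdkn2b). Zmpste24, the metalloprotease that matures prelamin A, showed the same separation, with 2561, 2515 and 2257 on the null-line arrays, against 1.34 to 14.1 (median 5.96) on the wild-type-line arrays (log2 difference 6.28, SE 0.163, adjusted p = 1.12e-09).

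Several of the widest gaps were in secreted and matrix genes. Sfrp2, a Wnt-binding protein, read 4513, 4910.4 and 3542 on the null-line arrays, against 25.9 to 82.2 (median 35.4) on the wild-type-line arrays (log2 difference 6.02, SE 0.228, adjusted p = 2.02e-08). Col11a1, a fibrillar collagen of cartilage, read 2239.7, 3559.5 and 1456 on the null-line arrays, against 3.75 to 32.8 (median 17.1) on the wild-type-line arrays (log2 difference 5.79, SE 0.294, adjusted p = 1.8e-07). Both were low throughout the wild-type line. Fos, the AP-1 subunit induced within minutes of growth factor signalling, was expressed in both lines but read 9109, 13906 and 9046 on the null-line arrays, against 160.1 to 373 (median 244) on the wild-type-line arrays (log2 difference 5.27, SE 0.219, adjusted p = 4.33e-08). The untransduced and Suv420h1-GFP arrays were nearly equal, and the null-line GFP array was the highest. The remaining genes of this group were Plac8 (6.02), the membrane protein Itm2a (6.12), the arylsulfatase Arsj (5.02), the cysteine dioxygenase Cdo1 (5.44), the scavenger receptor-like Scara3 (5.02) and the homeobox genes Hoxc8 (6.63), Hoxa9 (5.48) and Hoxc10 (4.93), all with adjusted p of 6.4e-07 or below in limma.

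Efemp1, which encodes the matrix protein fibulin-3, had the widest gap of all tested genes. It read 33.4, 10.5 and 15 on the null-line arrays, against 18429.9 to 25685 (median 23226) on the wild-type-line arrays. Every null-line array was near background for a gene bright on every wild-type-line array (log2 difference -9.03, SE 0.152, adjusted p = 4.21e-11). Ifi202b, an interferon-inducible DNA-binding protein, was near background in the null line in the same way, with 3.28, 3.19 and 2.04 on the null-line arrays, against 1971 to 2202 (median 2005) on the wild-type-line arrays (log2 difference -6.22, SE 0.0833, adjusted p = 1.1e-11). Thy1 read 11.2, 27.3 and 6.9 on the null-line arrays, against 1097 to 3641 (median 3258) on the wild-type-line arrays (log2 difference -6.11, SE 0.337, adjusted p = 3.17e-07), and its lowest wild-type signal was on the GFP array. None of these 3 genes was higher on the Suv420h1-GFP array than on both other null-line arrays.

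Other genes lower in the null line had roles in matrix, metabolism and signalling. The matrix protein dermatopontin (Dpt) read 541, 550.0 and 328 on the null-line arrays, against 5546 to 10395 (median 8236) on the wild-type-line arrays (log2 difference -3.98, SE 0.217, adjusted p = 2.99e-07). Serpinf1, the secreted anti-angiogenic factor PEDF, read 1569, 2632 and 954 on the null-line arrays, against 18959.7 to 24935 (median 21986) on the wild-type-line arrays (log2 difference -3.74, SE 0.237, adjusted p = 8.03e-07). Both were expressed in the null line at a lower level rather than being undetected. Lgals3, the lectin galectin-3 (-3.56), the muscle-type enolase Eno3 (-3.57), the alcohol dehydrogenase Adh7 (-3.52), the aldo-keto reductase Akr1c13 (-4.50), the neurturin receptor Gfra2 (-4.04), the Wnt7 co-receptor Adgra2 (-3.64), the chemotaxis regulator Ecscr (-4.36) and the GPI-anchored Psca (-3.55) fell as well. So did 3110039M20Rik (-5.50) and Gm6958 (-4.92), with adjusted p of 7.06e-07 or below for these 10 genes. Where 1 side of a gap lies under the offset of 25, the size of the log2 difference depends on that offset. With an offset of 100 the differences of Arsj, Hoxc10, Akr1c13 and Psca shrank by over 1.5 times, to 3.25, 3.20, -2.96 and -2.11, and of genes named further on so did those of Sema3e (1.81), Dhx58 (1.74), Lrrc4c (-1.35), Ebf3 (1.85), Tspan11 (-1.59), Pla2g7 (2.51), Agtr2 (2.98), Col2a1 (2.44), Krt19 (-1.13), Ctsf (0.95), Sema3b (-0.91), Serpina3n (-1.93), Epyc (-1.55), Cacna1g (-0.96), Zfp185 (0.90) and Tubb3 (-1.48). None lost its call.

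**Figure D1:**
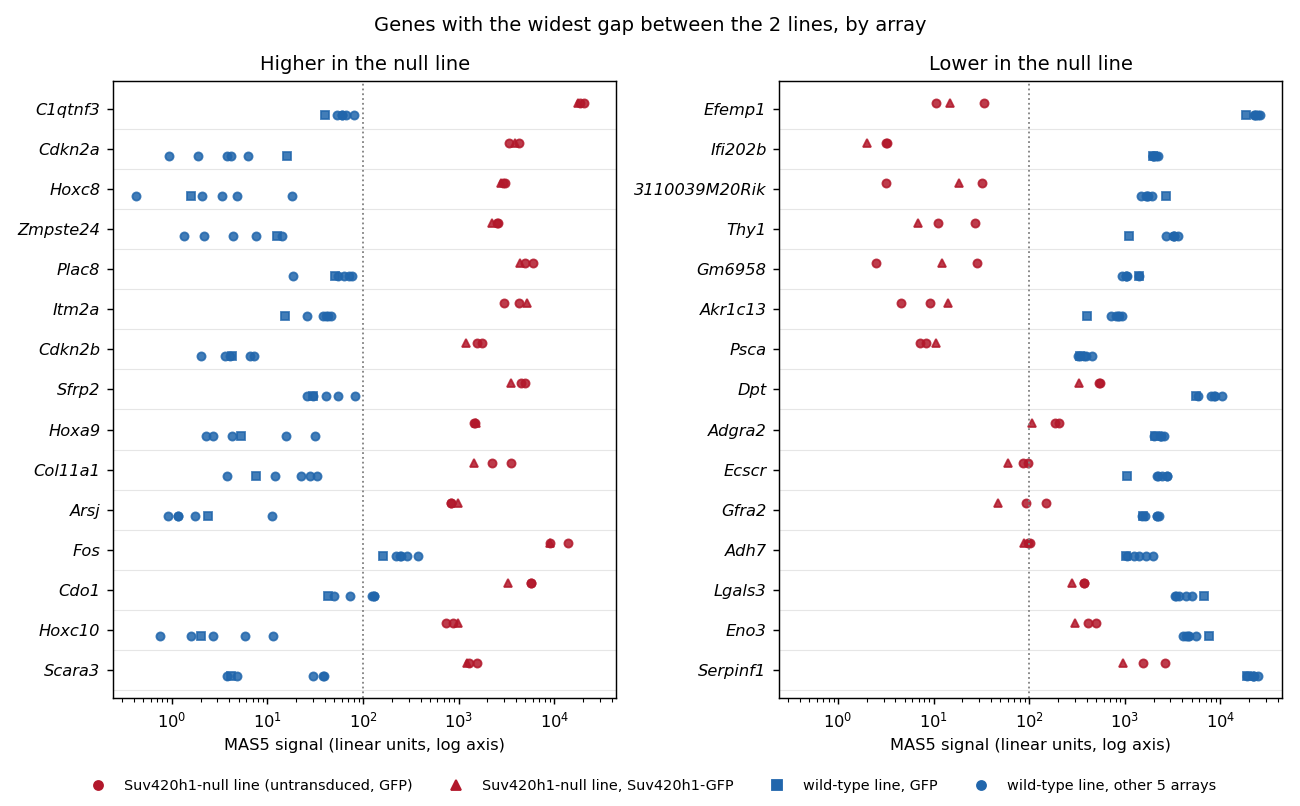
MAS5 signal (log axis) of the 15 genes with the widest gap higher (left) and the 15 lower (right) in the null line, 1 point per array, null-line arrays (red) above wild-type-line arrays (blue); the dotted line marks a signal of 100. No array of either line enters the other line's range for any of the 30 genes, and the Suv420h1-GFP array (triangle) lies with the other null-line arrays.

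The promoters of some of these genes are shown as context for genes that differed by wide gaps, chosen among those with exactly 1 promoter in the RefSeq table. Each window runs from 250 bases before to 50 after the start in RefSeq's table for build GRCm38.p6, 5' to 3' on the gene's strand. Capitals mark matches on either strand to the letters of 4 motifs: the TATA box (TATAAA), the AP-1 site (TGANTCA), the cyclic-AMP response element (TGACGTCA) and the core of the interferon response element (GAAA, any 2 bases, GAAA). C1qtnf3, Cdkn2b, Fos and the interferon-inducible RNA sensor Ifih1 were higher in the null line, and Efemp1 and Ifi202b lower. All 6 windows printed hold a match. Those of Zmpste24, Akr1c13 and Gas6 were read too, held none of the 4 motifs and are not printed, nor is that of Irf7, which held a TATA box.
C1qtnf3, chr15:10952082-10952381, plus strand: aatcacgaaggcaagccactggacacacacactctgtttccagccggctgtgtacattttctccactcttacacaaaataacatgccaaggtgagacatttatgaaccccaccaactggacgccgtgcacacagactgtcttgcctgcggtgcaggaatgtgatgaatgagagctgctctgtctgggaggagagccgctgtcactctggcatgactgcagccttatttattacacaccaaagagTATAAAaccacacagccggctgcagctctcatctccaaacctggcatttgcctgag
Cdkn2b, chr4:89310983-89311282, minus strand: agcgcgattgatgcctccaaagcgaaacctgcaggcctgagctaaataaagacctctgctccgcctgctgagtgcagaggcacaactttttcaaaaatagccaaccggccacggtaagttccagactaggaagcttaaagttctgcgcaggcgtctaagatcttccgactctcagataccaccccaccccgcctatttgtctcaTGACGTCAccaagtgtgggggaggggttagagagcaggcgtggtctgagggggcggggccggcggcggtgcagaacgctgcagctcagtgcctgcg
Fos, chr12:85473640-85473939, plus strand: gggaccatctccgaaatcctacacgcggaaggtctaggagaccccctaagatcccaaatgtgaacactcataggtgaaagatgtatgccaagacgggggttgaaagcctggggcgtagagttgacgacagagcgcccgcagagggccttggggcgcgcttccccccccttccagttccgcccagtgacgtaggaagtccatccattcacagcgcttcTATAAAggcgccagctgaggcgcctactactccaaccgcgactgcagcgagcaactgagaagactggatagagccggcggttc
Ifih1, chr2:62646206-62646505, minus strand: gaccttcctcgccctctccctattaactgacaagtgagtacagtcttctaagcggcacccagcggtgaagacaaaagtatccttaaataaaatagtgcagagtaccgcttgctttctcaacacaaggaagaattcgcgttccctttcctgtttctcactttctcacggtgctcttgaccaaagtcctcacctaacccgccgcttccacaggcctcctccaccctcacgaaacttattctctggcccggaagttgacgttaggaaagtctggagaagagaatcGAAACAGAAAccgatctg
Efemp1, chr11:28852955-28853254, plus strand: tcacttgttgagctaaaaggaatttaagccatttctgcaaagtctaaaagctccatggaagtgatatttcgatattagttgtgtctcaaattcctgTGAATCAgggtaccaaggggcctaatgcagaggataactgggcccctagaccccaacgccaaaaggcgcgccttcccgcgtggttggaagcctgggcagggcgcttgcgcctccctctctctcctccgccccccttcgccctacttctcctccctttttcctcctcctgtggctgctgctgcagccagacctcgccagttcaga
Ifi202b, chr1:173982795-173983094, minus strand: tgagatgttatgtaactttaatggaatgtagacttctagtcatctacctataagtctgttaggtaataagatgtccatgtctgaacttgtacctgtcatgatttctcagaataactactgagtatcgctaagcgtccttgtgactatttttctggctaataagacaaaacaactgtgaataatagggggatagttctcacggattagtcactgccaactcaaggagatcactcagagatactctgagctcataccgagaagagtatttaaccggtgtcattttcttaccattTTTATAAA
In C1qtnf3 and Fos the capitals are TATA boxes, in Cdkn2b a cyclic-AMP element, in Efemp1 an AP-1 site and in Ifih1 the interferon motif. In Ifi202b they are an overlapping pair of matches to the TATA letters, on opposite strands. That pair is the very end of the window, so it lies after the start and is a match of letters only. No match of one motif overlapped one of another in these windows, and a match describes letters, not a bound site.

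Promoter letters were then counted over the 6603 tested genes with exactly 1 promoter in the table. The TATA letters stood in 6.88% of them. They stood in 19.6% of the 46 called, non-overlapping genes over 8-fold higher in the null line and in 34.5% of the 29 over 8-fold lower. Over all 1155 higher and 1258 lower genes the shares were 7.79% and 6.92%. Median CpG counts were 22 in all tested genes, 13 in those over 8-fold higher and 5 in those over 8-fold lower. The interferon motif stood in 2.88% of all tested genes, 4.33% of those higher, 2.86% of those lower, and 5 of the 46 over 8-fold higher (10.9%). The AP-1 letters stood in 4.2% of all, 6.52% of the 46 and 13.8% of the 29. Over all 32851 promoters of the table the shares were 13.6% for TATA, 3.44% for the interferon motif, 7.81% for AP-1 and 1.79% for the cyclic-AMP element, which over the tested genes stood in 3.41%.

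Some genes were detected in only 1 of the lines. A signal of at most 50 on all 6 wild-type-line arrays with at least 200 on all 3 null-line arrays was found for 44 genes (0.432%), and the converse for 12 (0.118%). Both counts cover tested genes only, and genes were tested by their mean signal over all arrays. With 3 null-line and 6 wild-type-line arrays, that limit can leave out genes near 200 in the null line alone. It leaves out none that meet the converse, so 44 and 12 were not counted on equal terms. The 44 included the HOX genes Hoxa9, Hoxa10, Hoxc8 and Hoxc10. They also held cartilage and matrix genes, among them Col2a1, Col11a1, Fbln7, Abi3bp, Cthrc1 and Pamr1, and the tendon-associated Tnmd. Signalling genes included the BMP ligand Bmp6, the angiotensin receptor Agtr2, the Slit receptor Robo1, the axon guidance ligand Sema3e and the Notch-ligand-like Dner. Fbln7, a fibulin, read 1638, 2514 and 839 on the null-line arrays, against 2.11 to 23.4 (median 8.46) on the wild-type-line arrays. Robo1 read 918, 1082 and 902 on the null-line arrays, against 17.2 to 26.3 (median 23.7) on the wild-type-line arrays. Agtr2 read 380.3, 710.3 and 1507 on the null-line arrays, against 1.44 to 30.5 (median 3.39) on the wild-type-line arrays, and its highest value was on the Suv420h1-GFP array. The innate-response genes Dhx58 and Oasl2 and the p53-inducible apoptosis gene Pmaip1 were on this side too.

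The 12 genes detected only in the wild-type line included Efemp1, Thy1, Ifi202b, Psca, Akr1c13, Gm6958 and 3110039M20Rik. The inflammatory caspase Casp4 read 34.6, 49.8 and 44.8 on the null-line arrays, against 268 to 524 (median 479) on the wild-type-line arrays (log2 difference -2.74, SE 0.198, adjusted p = 2.22e-06). The tetraspanin Tspan11 read 42.5, 16.4 and 11.8 on the null-line arrays, against 203 to 364 (median 268) on the wild-type-line arrays (log2 difference -2.65, SE 0.217, adjusted p = 5.53e-06). Neither came near the wild-type range on any null-line array. The ectoenzyme Enpp3, the fucose mutarotase Fuom and Cldn34c1 completed the set. With stricter limits of 25 and 200 the 2 sets together held 20 genes in place of 56, and without the wild-type GFP array the second held 22.

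Lineage transcription factors differed in both directions. The shares in the list paragraphs that follow stand beside 20.7% higher and 23.2% lower over all tested genes. Of 32 tested, 10 rose (31.2%) and 9 fell (28.1%), with a median of 0.04 against -0.02 over all tested genes. Ebf2, a factor of preadipocytes, read 1353, 1574 and 1379 on the null-line arrays, against 19.9 to 87.2 (median 70.8) on the wild-type-line arrays (log2 difference 4.12, SE 0.269, adjusted p = 1.02e-06). Its paralogue Ebf3 read 295, 363 and 302 on the null-line arrays, against 2.87 to 44.1 (median 9.01) on the wild-type-line arrays (log2 difference 3.12, SE 0.302, adjusted p = 1.76e-05). Both were well separated between the lines. The forkhead genes Foxp2 and Foxd1 were higher on every null-line array, with 577, 673 and 1014 on the null-line arrays, against 32.4 to 54.8 (median 39.7) on the wild-type-line arrays for Foxp2 and 4403, 4336 and 3418 on the null-line arrays, against 883 to 1122 (median 1037) on the wild-type-line arrays for Foxd1. Their log2 differences were 3.51 (SE 0.189, adjusted p = 2.71e-07) and 1.96 (SE 0.11, adjusted p = 3.63e-07). Nuclear receptors were called more often higher than lower, 6 of 16 (37.5%) against 3 (18.8%), with a median of 0.02. The orphan receptor Nr4a1, itself an immediate-early gene, read 2527, 3703 and 2424 on the null-line arrays, against 99.9 to 222 (median 145) on the wild-type-line arrays (log2 difference 4.05, SE 0.254, adjusted p = 7.59e-07), and Nr4a2 differed by 1.93 (SE 0.20, adjusted p = 2.93e-05). The estrogen receptor Esr1 (2.58 (SE 0.292, adjusted p = 5.19e-05)) and the adipogenic regulator Pparg (2.23 (SE 0.227, adjusted p = 2.49e-05)) rose too. The adipocyte marker Fabp4 fell, with 94.8 to 264 on the null-line arrays against 277 to 391 on the wild-type-line arrays. Cartilage markers did not move together, since Col2a1 rose (3.70 (SE 0.363, adjusted p = 1.94e-05)) and its regulator Sox9 fell (-0.46 (SE 0.102, adjusted p = 0.00402)).

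Among secreted ligands, 8 of 24 growth factors rose (33.3%) and 8 fell (33.3%), beside 20.7% and 23.2% of all tested genes. Their median was 0.10. Gas6, the ligand of the TAM receptor kinases, read 17307, 21552 and 14836 on the null-line arrays, against 182 to 1177 (median 868) on the wild-type-line arrays (log2 difference 4.64, SE 0.478, adjusted p = 2.74e-05). The groups were far apart, and the wild-type GFP array was the lowest of all. The PDGF ligands went opposite ways. Pdgfd read 2108, 2899.7 and 1198 on the null-line arrays, against 112 to 402 (median 262) on the wild-type-line arrays (log2 difference 2.92, SE 0.353, adjusted p = 8.44e-05), whereas Pdgfc read 517, 609.8 and 870.4 on the null-line arrays, against 2274 to 3668 (median 2743) on the wild-type-line arrays (log2 difference -2.08, SE 0.195, adjusted p = 1.38e-05). Angptl4, a secreted inhibitor of lipoprotein lipase, fell by 2.61 on the log2 scale (adjusted p = 3.75e-07). Without the null-line GFP array 6 growth factors rose and 5 fell, and without E824* 7 and 5.

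Receptors changed in both directions, the receptor tyrosine kinases at about the shares of all tested genes (20.7% higher and 23.2% lower). Of 21 receptor tyrosine kinases 5 rose (23.8%) and 5 fell (23.8%), with a median of 0.02, and without the wild-type GFP array 5 and 8. Egfr, the receptor of EGF, read 1355, 1359 and 1529.9 on the null-line arrays, against 286 to 474 (median 371) on the wild-type-line arrays (log2 difference 1.86, SE 0.143, adjusted p = 3.45e-06). The neurotrophin receptor Ntrk2 was higher (2.20 (SE 0.347, adjusted p = 0.0005)). Fgfr2 read 208, 138 and 272 on the null-line arrays, against 500.002 to 925 (median 684) on the wild-type-line arrays (log2 difference -1.65, SE 0.214, adjusted p = 0.000135), and the Wnt5a receptor Ror1 was lower (-2.04 (SE 0.332, adjusted p = 0.000623)). These 4 genes had no overlap between the lines. Of 19 G-protein-coupled receptors 7 rose (36.8%) and 4 fell (21.1%), with a median of -0.08. Ptger4, a receptor for prostaglandin E2, read 299, 257 and 199 on the null-line arrays, against 1292 to 1503 (median 1346) on the wild-type-line arrays (log2 difference -2.35, SE 0.116, adjusted p = 1.5e-07), and Gprc5b fell too (-1.45 (SE 0.138, adjusted p = 1.54e-05)). Without the wild-type GFP array 7 fell in that list, and without the null-line GFP array 4 rose and 4 fell.

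Of 25 cytokine receptors 4 rose (16%) and 3 fell (12%), beside 20.7% and 23.2% of all tested genes, with a median of -0.07. Tnfrsf11b, the soluble decoy osteoprotegerin, read 4550.0, 3932 and 3238 on the null-line arrays, against 129 to 266 (median 196) on the wild-type-line arrays (log2 difference 4.19, SE 0.202, adjusted p = 1.29e-07), with the lines far apart. Il13ra1 (-2.76 (SE 0.347, adjusted p = 0.00011)) and the IL-1 co-receptor Il1rap (-1.87 (SE 0.172, adjusted p = 1.22e-05)) were lower, and Il17ra was higher (0.83 (SE 0.136, adjusted p = 0.000645)). This list depended on 1 array: without the wild-type GFP array 7 rose and 11 fell.

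Of 32 innate nucleic-acid sensors, adaptors and other innate-response genes 15 rose (46.9%) and 7 fell (21.9%), beside 20.7% and 23.2% of all tested genes. The list median was 0.28. Ifih1, which senses long double-stranded RNA, read 1397, 1548 and 1854 on the null-line arrays, against 92 to 325 (median 205) on the wild-type-line arrays (log2 difference 2.81, SE 0.297, adjusted p = 3.3e-05). Dhx58, a helicase of the same family, read 228, 275 and 360.0 on the null-line arrays, against 5.93 to 39.3 (median 11.9) on the wild-type-line arrays (log2 difference 2.99, SE 0.256, adjusted p = 7.38e-06). For both, the highest null-line signal was on the Suv420h1-GFP array. Among the 7 that fell were Tlr4 and Socs2, on the list though neither senses nucleic acids. The other lower members are not named here. Tlr4, the lipopolysaccharide receptor, read 77.8, 123 and 34.5 on the null-line arrays, against 522 to 605 (median 560.0) on the wild-type-line arrays (log2 difference -2.60, SE 0.221, adjusted p = 7e-06). The cytokine-signalling inhibitor Socs2 read 156, 191 and 124 on the null-line arrays, against 1036 to 3246 (median 2523) on the wild-type-line arrays (log2 difference -3.58, SE 0.32, adjusted p = 9.97e-06). Genes of the NF-kappaB system moved in both directions, 5 of 18 higher (27.8%) and 7 lower (38.9%), with a median of -0.13. Tnfaip3, the A20 feedback inhibitor, rose (1.10 (SE 0.17, adjusted p = 0.00044)), as did the kinase Ikbkb (0.68 (SE 0.103, adjusted p = 0.000377)). The adaptor Ikbkg (-1.22 (SE 0.10, adjusted p = 5.62e-06)) and Tnfaip2 (-1.58 (SE 0.162, adjusted p = 2.64e-05)) fell. Of these, 2 were higher without the Suv420h1-GFP array and 3 without the untransduced or GFP null-line array, LacZ, PREX2 wt, E824* or Q1430*, but 5 without wild-type GFP or K278*; 4 were lower without the null-line GFP array.

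Developmental signalling pathways were mixed, beside 20.7% of all tested genes higher and 23.2% lower. Of 13 Notch genes 4 rose (30.8%) and 4 fell (30.8%), with a median of 0.10. The receptor Notch2 (0.87 (SE 0.11, adjusted p = 0.000108)) and the target Hes1 (0.68 (SE 0.139, adjusted p = 0.00248)) were higher, and the transcriptional effector Rbpj (-0.46 (SE 0.0897, adjusted p = 0.00186)) and the glycosyltransferase Rfng (-0.96 (SE 0.13, adjusted p = 0.000183)) lower. Of 12 Hedgehog genes 4 rose (33.3%) and 5 fell (41.7%), with a median of -0.12. The effector Gli3 read 1787, 2057 and 2939.8 on the null-line arrays, against 1047 to 1198 (median 1120.2) on the wild-type-line arrays (log2 difference 0.96, SE 0.134, adjusted p = 0.000224), with its highest signal on the Suv420h1-GFP array. The transducer Smo (0.43 (adjusted p = 0.00132)) and the acyltransferase Hhat (0.52 (adjusted p = 0.00824)) were higher, and the kinesin Kif7 lower (-0.60 (adjusted p = 0.00128)). Of 8 retinoid genes 0 rose and 2 fell (25%), with a median of 0.04, and only Crabp1 was non-overlapping. Crabp1 read 272, 139 and 565 on the null-line arrays, against 636 to 1798 (median 772) on the wild-type-line arrays (log2 difference -1.54, SE 0.399, adjusted p = 0.00971), and its call ended without the null-line GFP array (-1.09). The lower counts were unstable: 2 Notch genes fell without the untransduced or the GFP null-line array (2 rose without the null-line GFP array), 2 Hedgehog genes fell in the same cases and 3 without LacZ, E824* or Q1430*. For retinoid genes 0 fell without the null-line GFP array and 1 without any of the others but wild-type GFP and K278*.

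Of 13 tested slits, netrins and their receptors 7 fell (53.8%, beside 23.2% of all tested genes) and 3 rose (23.1%), with a median of -0.64. The ligand netrin-1 (Ntn1) read 299, 360.3 and 424 on the null-line arrays, against 1665 to 2274 (median 1979) on the wild-type-line arrays (log2 difference -2.38, SE 0.121, adjusted p = 1.84e-07). The adhesion proteins Lrrc4c, a netrin-G ligand, and Flrt3, an Unc5 and latrophilin ligand, fell by 2.32 and 2.35 on the log2 scale (adjusted p = 4.81e-07 and 2.45e-06). Robo1, described above, went the opposite way (4.38 (SE 0.134, adjusted p = 4.4e-09)). Of 21 semaphorins, plexins and neuropilins 5 rose (23.8%) and 6 fell (28.6%), near the 20.7% and 23.2% of all tested genes. Their median was -0.06. Sema3e read 295, 256 and 298 on the null-line arrays, against 2.04 to 18.5 (median 9.5) on the wild-type-line arrays (log2 difference 3.18, SE 0.202, adjusted p = 8.48e-07), whereas Sema3d read 39.5, 49.1 and 20.7 on the null-line arrays, against 89.4 to 845 (median 537) on the wild-type-line arrays (log2 difference -2.89, SE 0.521, adjusted p = 0.00115). The 2 ligands differed in opposite directions. Sema6d (-1.89 (adjusted p = 2.86e-05)) and Sema3b (-1.50 (adjusted p = 0.0107)) were lower. Of 12 ephrins and Eph receptors 1 rose (8.33%) and 2 fell (16.7%), with a median of -0.20. Those named by the rule were Epha2 (0.99 (adjusted p = 0.0177)) and Ephb3 (-0.40 (adjusted p = 0.0241)); the call of Epha2 ended without the Suv420h1-GFP array (0.83) and that of Ephb3 without that array (-0.39) or the untransduced one (-0.37). In that list 2 rose and 4 fell without the wild-type GFP array, 0 rose without the Suv420h1-GFP array, and 0 fell without the untransduced array; 1 fell without the null-line GFP array, LacZ, PREX2 wt, E824* or Q1430*.

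Of 23 collagen crosslinking and folding enzymes 9 rose (39.1%) and 3 fell (13%), beside 20.7% and 23.2% of all tested genes. Their median was 0.08, and 5 fell without the wild-type GFP array. The lysyl hydroxylase Plod2 read 1641, 2123 and 1337 on the null-line arrays, against 419 to 527 (median 451) on the wild-type-line arrays (log2 difference 1.81, SE 0.134, adjusted p = 2.67e-06). The prolyl isomerase Fkbp14 (1.17 (SE 0.178, adjusted p = 0.000397)) and the collagen galactosyltransferase Colgalt1 (1.12 (SE 0.0834, adjusted p = 2.73e-06)) were higher, and Pcolce2, an enhancer of procollagen cleavage, lower (-2.82 (SE 0.338, adjusted p = 7.85e-05)). Of 23 proteoglycans and hyaluronan enzymes 10 rose (43.5%) and 4 fell (17.4%), with a median of 0.09, and 6 rose without the Suv420h1-GFP array. The hyaluronan synthase Has2 read 1795, 1225 and 1300.3 on the null-line arrays, against 153 to 619.9 (median 239.5) on the wild-type-line arrays (log2 difference 2.28, SE 0.345, adjusted p = 0.000387). The heparan sulfatase Sulf1 (1.10 (SE 0.172, adjusted p = 0.000471)) and the glypican Gpc1 (1.11 (SE 0.225, adjusted p = 0.00245)) were higher, and the sulfotransferase Hs3st1 was lower (-1.32 (SE 0.311, adjusted p = 0.00589)).

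Proteases and their inhibitors changed in both directions, beside 20.7% of all tested genes higher and 23.2% lower. Of 18 ADAM and ADAMTS proteases 5 rose (27.8%) and 6 fell (33.3%), with a median of 0.23. Adam8 read 236, 157 and 367 on the null-line arrays, against 62.1 to 103 (median 89.9) on the wild-type-line arrays (log2 difference 1.26, SE 0.224, adjusted p = 0.00108), and Adam19 read 226, 257 and 310.2 on the null-line arrays, against 565 to 641 (median 594) on the wild-type-line arrays (log2 difference -1.12, SE 0.105, adjusted p = 1.44e-05). Adamts4, an aggrecanase (-1.13 (SE 0.231, adjusted p = 0.00257)), and Adam23 (-1.15 (SE 0.208, adjusted p = 0.00119)) were lower. Of 16 serpins and plasminogen activation genes 5 rose (31.2%) and 3 fell (18.8%), with a median of 0.06. Tissue factor (F3), the initiator of coagulation, read 8181, 8149.9 and 9331 on the null-line arrays, against 3113 to 3575 (median 3413) on the wild-type-line arrays (log2 difference 1.33, SE 0.0736, adjusted p = 3.41e-07), and Serpinb6b was higher (2.35 (SE 0.282, adjusted p = 7.8e-05)) and Serpinb8 lower (-1.81 (SE 0.165, adjusted p = 1.18e-05)). Of 22 cathepsins and lysosomal enzymes 5 rose (22.7%) and 6 fell (27.3%), with a median of -0.05. The lysosomal aminopeptidase cathepsin H (Ctsh) read 3645, 3559 and 2529 on the null-line arrays, against 145 to 307 (median 184) on the wild-type-line arrays (log2 difference 3.89, SE 0.202, adjusted p = 2.03e-07). Cathepsin Z (Ctsz) read 360.0, 586 and 879 on the null-line arrays, against 3017 to 4435 (median 4096) on the wild-type-line arrays (log2 difference -2.73, SE 0.221, adjusted p = 5.1e-06). This pair of one enzyme family thus differed in opposite directions, with no overlap for either. Ctsf was higher (1.47 (adjusted p = 0.0169)) but lost its call without the Suv420h1-GFP (1.27) or the GFP null-line array (1.49), and legumain (Lgmn) was lower (-1.0 (adjusted p = 0.00134)). In the ADAM list 3 rose without the untransduced array, 3 rose and 4 fell without the null-line GFP array and 3 fell without the Suv420h1-GFP array, and 5 serpin genes fell without the wild-type GFP array. Without the wild-type GFP and K278* arrays 10 cathepsin and lysosomal genes fell.

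In aldehyde and aldo-keto metabolism 9 of 23 genes fell (39.1%) and 3 rose (13%), beside 23.2% and 20.7% of all tested genes. Their median was -0.24. Adh7 read 96.7, 102 and 87.3 on the null-line arrays, against 1030.4 to 1949.9 (median 1329) on the wild-type-line arrays and Akr1c13 read 9.17, 4.55 and 14 on the null-line arrays, against 407 to 944 (median 835) on the wild-type-line arrays. The carbonyl reductase Cbr2 read 186, 134 and 173 on the null-line arrays, against 898 to 2588 (median 2428) on the wild-type-line arrays (log2 difference -3.37, SE 0.314, adjusted p = 1.32e-05). All 3 were lower on every null-line array than on any wild-type-line array. Adh1 ran against them, with 4746, 7151 and 5365 on the null-line arrays, against 62.2 to 2241 (median 971) on the wild-type-line arrays, its wild-type minimum being the GFP array (log2 difference 3.12, SE 0.874, adjusted p = 0.0142); the difference was 2.06 without the wild-type GFP and K278* arrays and lost its call without the null-line GFP array (2.96). Of 9 genes of prostaglandin synthesis 3 rose (33.3%) and 1 fell (11.1%), with a median of 0.16, and 2 fell without the wild-type GFP array. Ptgs2, the inducible cyclooxygenase, read 7935, 5620.4 and 8537 on the null-line arrays, against 983 to 5489.6 (median 1605) on the wild-type-line arrays (log2 difference 1.88, SE 0.475, adjusted p = 0.00848), and its highest wild-type value, on the GFP array, nearly met the null line. Pla2g7 (4.10 (SE 0.271, adjusted p = 1.15e-06)) was higher and Ptges2 (-0.50 (SE 0.126, adjusted p = 0.00866)) lower.

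In the apoptosis list 7 of 22 genes fell (31.8%) and 3 rose (13.6%), beside 23.2% and 20.7% of all tested genes. The list median was -0.21, and 5 rose without the wild-type GFP array. The pro-apoptotic Bcl2l11, known as Bim, read 235, 237 and 344 on the null-line arrays, against 351 to 1456 (median 1045) on the wild-type-line arrays (log2 difference -1.62, SE 0.379, adjusted p = 0.00565), and Bok read 279, 320.4 and 302 on the null-line arrays, against 649.7 to 1825 (median 939.8) on the wild-type-line arrays (log2 difference -1.62, SE 0.248, adjusted p = 0.000412). Casp12 (-1.49 (SE 0.256, adjusted p = 0.000872)) and Casp4, described above, were lower too. The pro-apoptotic BH3 gene Pmaip1, by contrast, was among the genes detected only in the null line (4.04 (adjusted p = 6.23e-07)). Of 25 connexins, tetraspanins and caveolar genes 11 fell (44%) and 6 rose (24%), with a median of -0.09, and 7 fell without the Suv420h1-GFP array. The caveolar coat protein Cavin2 read 1813, 1525 and 1492 on the null-line arrays, against 8466 to 14986 (median 9723) on the wild-type-line arrays (log2 difference -2.69, SE 0.174, adjusted p = 9.85e-07). Tspan6 read 3199, 3445 and 3738 on the null-line arrays, against 281 to 496 (median 431) on the wild-type-line arrays (log2 difference 3.01, SE 0.152, adjusted p = 1.76e-07), and Tspan13 was also higher (1.71 (SE 0.248, adjusted p = 0.00029)). Of 12 tested channels 4 fell (33.3%) and 1 rose (8.33%), with a median of 0.13. The ATP-gated P2rx3 (-4.51 (SE 0.429, adjusted p = 1.54e-05)), the potassium channel subunit Kcnab1 (-2.51 (SE 0.197, adjusted p = 4e-06)) and Clic4 (-0.79 (SE 0.0813, adjusted p = 2.58e-05)) were lower, and Cacna2d1, a calcium channel subunit, higher (0.88 (SE 0.117, adjusted p = 0.000161)). In that list 2 rose without wild-type GFP, K278* or Suv420h1-GFP.

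Annexins and S100 proteins were higher in 7 of 15 (46.7%) and lower in 0, beside 20.7% and 23.2% of all tested genes. Their median was 0.30 (1 fell without wild-type GFP or without K278*). Anxa3 (0.96 (SE 0.197, adjusted p = 0.00258)), S100a16 (1.43 (SE 0.259, adjusted p = 0.00123)), S100a13 (0.77 (SE 0.122, adjusted p = 0.000523)) and S100a1 (0.69 (SE 0.162, adjusted p = 0.00578)) were named by the rule. Centred by chromosome, 6 of that list rose and 2 fell, and the median was 0.12. Centred on 51 neighbouring genes, 5 rose and 2 fell, and the median was 0.11. Of 9 intermediate filament genes 1 rose (11.1%) and 2 fell (22.2%), with a median of -0.01. Krt80 was higher (1.18 (adjusted p = 0.00136)), and Krt19 (-1.69 (adjusted p = 6.35e-05)) and lamin B1, Lmnb1 (-0.50 (adjusted p = 0.0174)), lower, the last losing its call without the untransduced (-0.48) or Suv420h1-GFP array (-0.47) (1 of the list fell without the untransduced array). Of 5 tested skeletal and smooth muscle markers 0 rose and 2 fell (40%), with a median of -0.51. The actin-binding Cnn1 (-2.96 (SE 0.218, adjusted p = 2.53e-06)) and Tagln (-1.32 (SE 0.232, adjusted p = 0.000985)) were lower, whereas Acta2 read 29221 to 30002 against 28481 to 35528, and Smtn read 163 to 232 against 124 to 204, both with overlap between the null and the wild-type line. Of 14 clock genes 1 rose (7.14%) and 2 fell (14.3%), with a median of -0.16. These were Per1 (0.48 (adjusted p = 0.021)) and, among the lower, Cry1 (-0.42 (adjusted p = 0.01)); the call of Per1 ended without the Suv420h1-GFP (0.44) or GFP null-line array (0.48) and that of Cry1 without the null-line GFP array (-0.36). In the clock list 0 fell without the null-line GFP array, 1 without the untransduced or Suv420h1-GFP array, LacZ, E824* or Q1430*, and 2 rose and 4 fell without wild-type GFP.

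**Figure D2:**
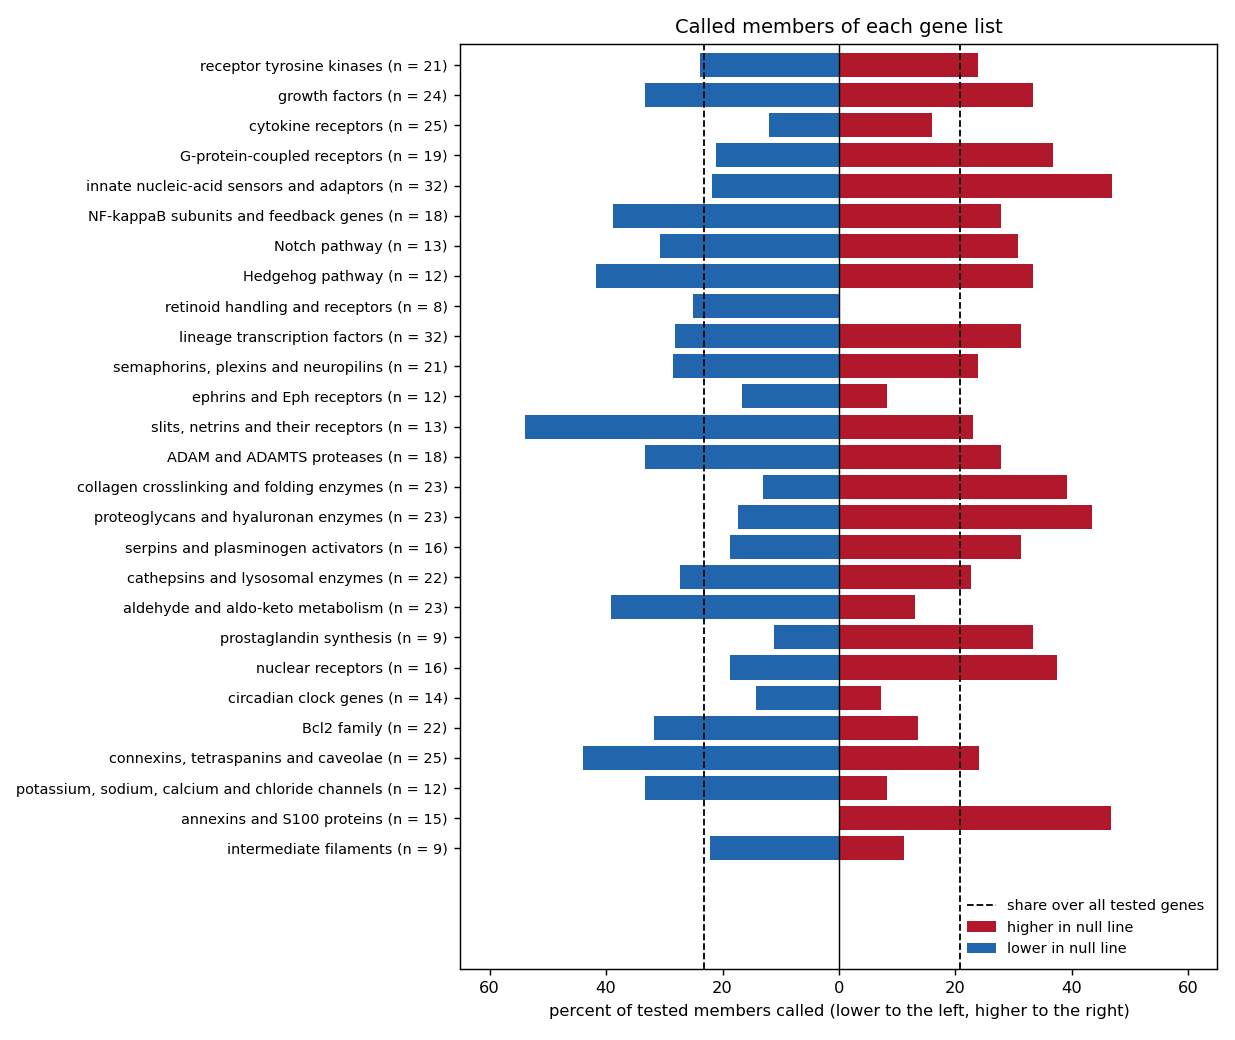
Percent of tested members called, for the gene lists with at least 8 tested members other than the cell type markers, as higher (red, to the right) or lower (blue, to the left) in the null line; dashed lines mark the shares over all tested genes, 20.7% higher and 23.2% lower. Among the lists drawn, innate sensors, annexins and proteoglycans have the longest bars to the right, and slits and netrins the longest to the left.

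Both lines expressed Xist, the RNA that silences an X chromosome in female cells. It read 10586, 11650.2 and 12796 on the null-line arrays, against 4541 to 5661 (median 4903) on the wild-type-line arrays (log2 difference 1.22, SE 0.0858, adjusted p = 1.83e-06), and the other tested Xist probe sets were higher in the null line as well. The Y-linked genes Eif2s3y, Kdm5d, Uty and Usp9y were at or below 48.5 on every array. Kdm5c, which escapes X inactivation, was slightly higher in the null line (0.40 (SE 0.0837, adjusted p = 0.00304 in limma)). The X-linked Kdm6a read 985 to 1235 in the null line against 664 to 999 in the wild-type line. Ddx3x read 10170 to 11368 against 10588 to 12836, and Eif2s3x 9313 to 9554 against 8971 to 10651.5. Each of these overlapped between the lines. Of 5 tested genes of the sex-chromosome list 3 rose (60%) and 0 fell, beside 20.7% and 23.2% of all tested genes.

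The calls were not spread evenly over the chromosomes. On chromosome 8, 279 called genes were higher and 47 lower in the null line (85.6% of calls higher), and the median log2 difference over its 569 tested genes was 0.37. The median deviation of chromosome 8 genes from their means was 0.241 to 0.249 on the null-line arrays and -0.156 to -0.0822 on the wild-type-line arrays. Chromosome 6 leaned the same way, with 184 genes higher and 41 lower (81.8% of calls higher, median 0.22), as did chromosome 3, with 175 higher and 67 lower (72.3%, median 0.18). In the other direction, chromosome 18 had 22 genes higher and 136 lower (86.1% of calls lower, median -0.31), chromosome 7 had 52 and 277 (84.2%, median -0.27) and chromosome 15 had 47 and 175 (78.8%, median -0.25). Chromosome 9 was nearly even, with 103 higher and 118 lower and a median of -0.02. Over all tested genes 20.7% were called higher and 23.2% lower, and the median was -0.02.

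The shifts were tested per chromosome over arrays. An exact permutation test of the array medians over all 84 ways to choose 3 of 9 arrays gave its smallest possible p of 0.0119 (two-sided, 0.0159 adjusted over the 20 chromosomes) for the 15 chromosomes whose arrays did not overlap between the lines. A split without overlap is already the most extreme in its direction, so this p largely restates the non-overlap. With 1 line per genotype, the test describes these arrays and not genotypes. The adjusted p was under 0.05 for 18 chromosomes and was 0.238 for chromosome 9 and 0.0501 for the X. The count of non-overlapping chromosomes was 14 to 16 with other offsets, a higher signal limit or quantile normalization, and 15 to 18 with 1 array left out. With no limit on signal the medians of chromosomes 8 and 18 were 0.22 and -0.14. The spread within a line differed by chromosome. For chromosome 3 the 3 null-line medians spanned 0.109 to 0.121 and the 6 wild-type-line medians -0.0681 to -0.0526, whereas for chromosome 18 they spanned -0.294 to -0.152 in the null line and 0.0637 to 0.128 in the wild-type line, and for the X -0.111 to -0.0139 and -0.0890 to 0.0948. DNA copy number was not measured in these samples.

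**Figure D3:**
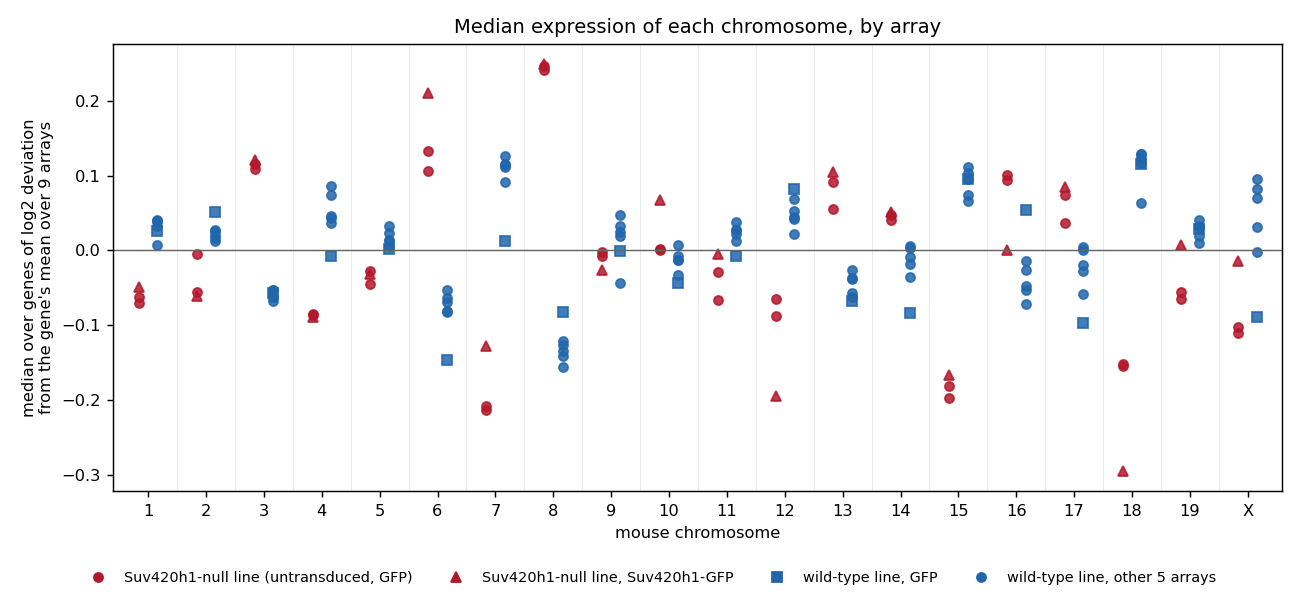
Median over tested genes of the log2 deviation from each gene's mean over 9 arrays, by chromosome, 1 point per array, null-line arrays (red) left of wild-type-line arrays (blue). Chromosomes 8, 6 and 3 lie higher and chromosomes 18, 7 and 15 lower on all 3 null-line arrays, with no overlap.

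Chromosome 4 differed by region. Along gene order, 106 tested genes from Ror1 to Nfyc, bounds chosen after the values were seen, held 91 genes lower in the null line (85.8%) and 1 higher, with a median of -0.90. Their array medians were -0.594 to -0.507 in the null line and 0.151 to 0.356 in the wild-type line. The 240 genes before Ror1 had 69 higher and 49 lower (median 0.11), and the 263 after Nfyc had 33 higher and 66 lower (median -0.11). The stretch held genes of many functions. The longest unbroken run of non-overlapping genes in it was 16 genes from the kinesin Kif2c to the fatty-acid elongase Elovl1, all called, with log2 differences between -1.83 (Tmem53) and -0.51. Other members were the receptor phosphatase Ptprf (-0.98 (adjusted p = 0.000118)), the histone demethylase Kdm4a (-0.79 (adjusted p = 0.000677)) and the Mediator subunit Med8 (-1.33 (adjusted p = 5.28e-06)).

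Immediately after this stretch lay Zmpste24 and a block of genes that were undetected in the wild-type line. In chromosome order, Exo5, a DNA exonuclease, read 557, 626 and 700.2 on the null-line arrays (untransduced, GFP and Suv420h1-GFP) against 1.39 to 23.1 in the wild-type line. Smap2, which was too dim to be tested, read 112, 154 and 183 against 1.96 to 31.2. After Zmpste24 itself, the zinc-finger gene Rlf read 557, 531 and 635 against 0.821 to 19.4. Genes on either side were expressed in both lines: Nfyc, a subunit of the NF-Y factor, read 1083 to 1226 against 1893 to 2153, and Ppt1, a lysosomal thioesterase, read 902 to 936 against 887 to 1168. The 4 genes between Nfyc and Ppt1 that passed 100 on every null-line array were thus near background on all 6 wild-type-line arrays. The other genes of the block on the array, Rims3, Col9a2, Tmco2, Gm12888 and 9530002B09Rik, were dim in both lines. These neighbours were singled out after their values were seen, apart from Zmpste24. Cdkn2a and Cdkn2b are another adjacent pair on chromosome 4.

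**Figure D4:**
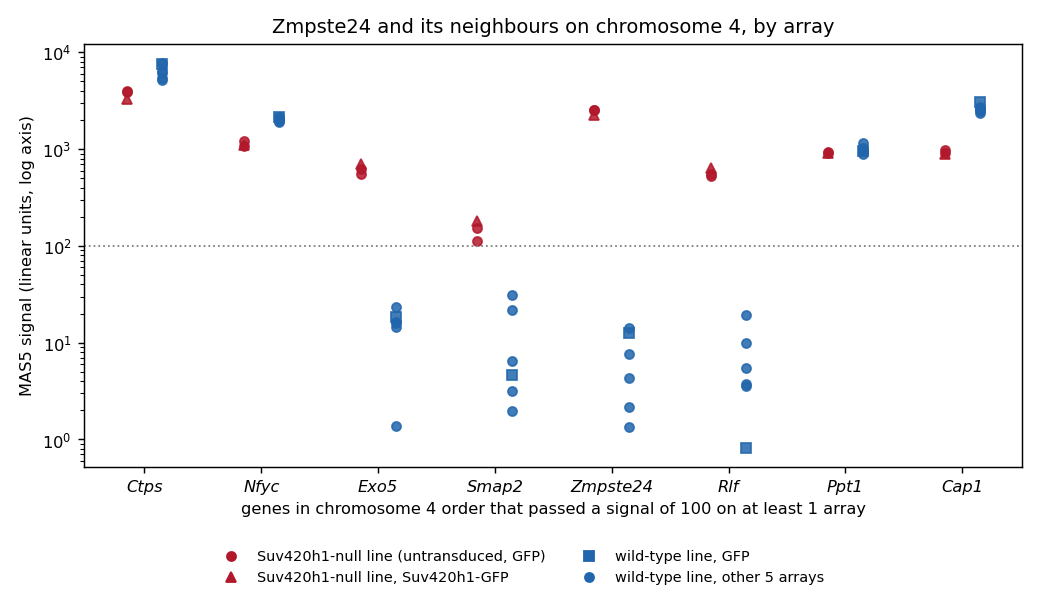
MAS5 signal (log axis) of Zmpste24 and its neighbours in chromosome 4 order, null-line arrays (red) left of wild-type-line arrays (blue), 1 point per array; genes with no array above 100 are left out. Exo5, Smap2, Zmpste24 and Rlf are above 100 on all 3 null-line arrays and below 32 on all 6 wild-type-line arrays, while Nfyc, Ppt1 and Cap1 are above 800 on all 9.

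Some neighbouring genes changed together. Runs of at least 4 neighbours in a row that did not overlap, all in 1 direction, numbered 91 and held 464 of the 10177 tested genes. Of these, 252 were higher in 51 runs and 212 lower in 40. Over all tested genes 20.3% were higher and 21.1% lower without overlap, and how many runs would arise by chance was not tested. Chromosome 4 held 10 of the lower runs, with 77 genes. Chromosome 8 had 19 runs with 108 genes, all higher. The longest, 17 genes from the lipid flippase Atp11a to Mcph1, held Gas6 (4.64), Atp11a (1.61) and the lysosomal membrane protein Lamp1 (0.49), with a median of 0.71. Another 8 genes ran from the phosphatase subunit Ppp2cb to Saraf and held the glutathione reductase Gsr (1.52). Chromosome 15 had 7 runs of lower genes and 1 of higher ones, the 6 HOXC genes from Hoxc10 to Hoxc4, with Hoxc9 at 4.46 and Hoxc6 at 2.59. On chromosome 2 a run of 7 lower genes held Hoxd9 (-1.03) and Hoxd8 (-1.72), with Mtx2, Nfe2l2 and Agps among its other members. A run of 4 lower genes on chromosome 11 held Hoxb3, Hoxb4 and Hoxb2. On chromosome 16 a run from Pdia5 to Parp9 held the interferon-inducible Parp14 (2.45) and Dtx3l (1.48), and on chromosome 17 a run from Brd2 to Tap2 held the antigen-processing genes Psmb9 (1.88) and Tap1 (2.17).

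**Figure D5:**
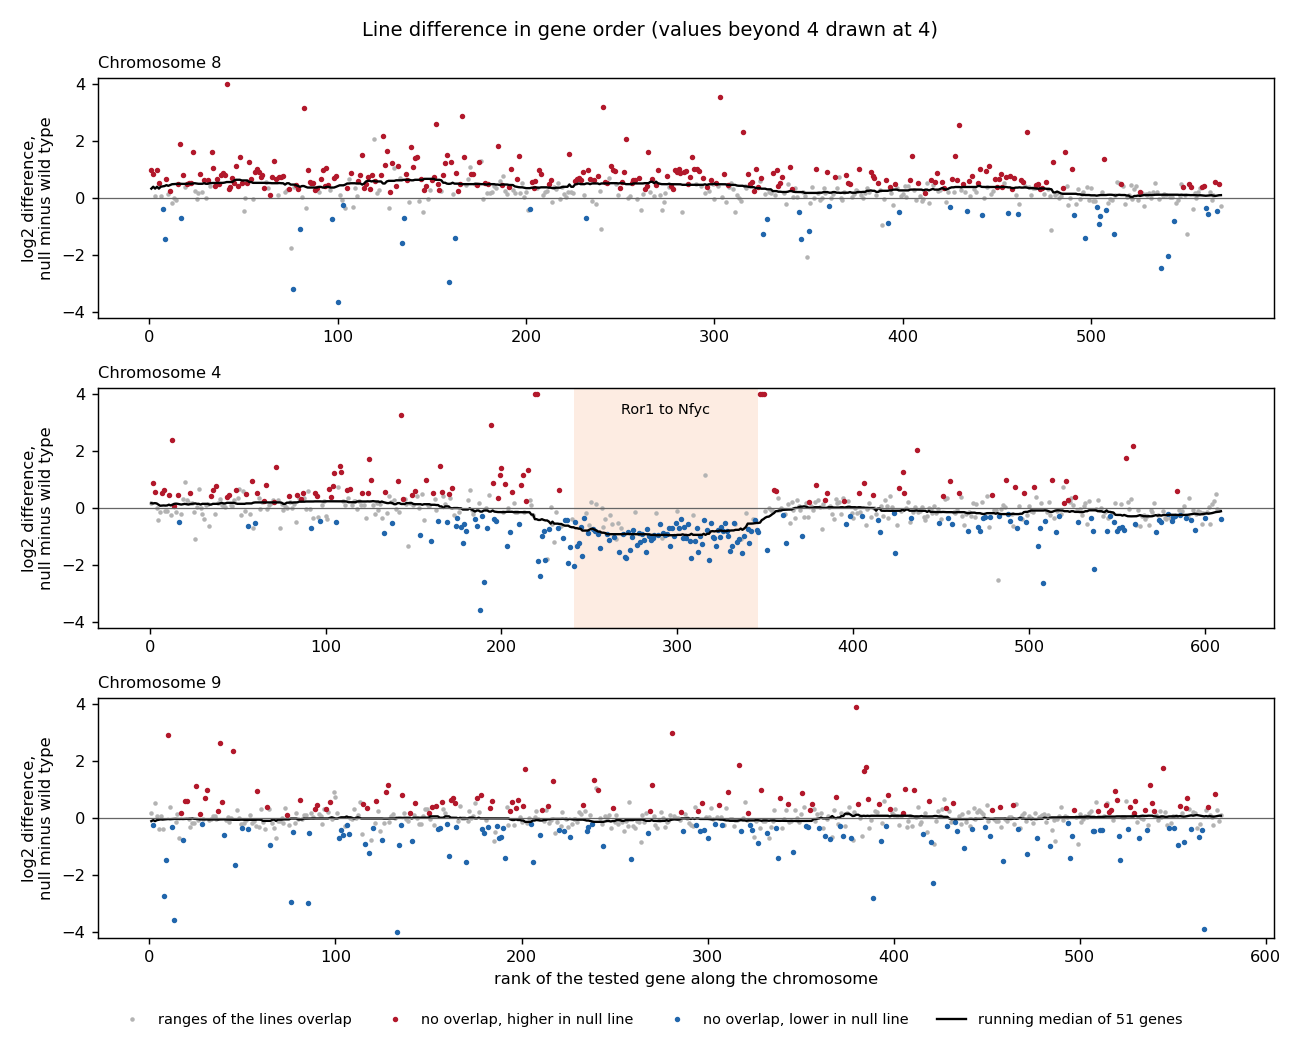
Log2 difference of each tested gene (null minus wild-type line) in gene order along chromosomes 8, 4 and 9, with a running median of 51 genes (black); coloured points are genes whose ranges do not overlap. Chromosome 8 lies above 0 along most of its length, chromosome 4 dips between Ror1 and Nfyc (shaded), and chromosome 9 stays near 0.

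How many calls go with these regional shifts was measured by centring each array, a step chosen after the shifts were seen. With values centred by chromosome 4098 genes were called, and 3471 of the original 4469 kept their call and direction (77.7%). Centred on 51 neighbouring genes, 3881 were called and 3232 were shared (72.3%). Of the 326 calls on chromosome 8, 174 (53.4%) and 150 (46%) were shared under the 2 centrings, and of the 92 calls between Ror1 and Nfyc, 82 and 30. The 15 genes with the widest gaps in each direction kept their calls under both. Of the other named genes, Smo (0.19 and 0.18), Lmnb1 (-0.19 and -0.17) and Rplp2 (-0.08 and 0.0045) lost their calls under both, and Ikbkb (0.20), Dusp4 (1.54) and Zbtb33 (-0.18) under the second.

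The line difference was also examined in 2 sets of arrays that share no sample but come from the same 2 lines. With only the wild-type GFP and LacZ arrays and the untransduced and GFP null-line arrays, 1030 genes were called. In the other 5 arrays, Suv420h1-GFP against the 4 PREX2 arrays, 1026 of them had the same direction, 916 were called in it (88.9%) and 0 in the opposite one. The other 5 arrays called 2587 genes, of which the 916 are 35.4%. The first set has 2 arrays a side, and in the second the lone null-line array was assumed to vary like the others. Because both sets hold the same 2 lines, their agreement is not a replication in other lines.

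Single arrays set the edge of the non-overlapping set. Without the wild-type GFP array a further 844 genes had no overlap, 341 higher and 503 lower. The widest differences among these were in Scara5, a ferritin receptor, with 160.3, 482 and 88.9 on the null-line arrays, against 195 to 6044 (median 3431) on the wild-type-line arrays; in the lung cytochrome P450 Cyp2f2, with 18.7, 76.5 and 10.1 on the null-line arrays, against 34.6 to 1504 (median 727) on the wild-type-line arrays; and in the acute-phase inhibitor Serpina3n, with 6.97, 11.8 and 9.29 on the null-line arrays, against 9.19 to 688 (median 472) on the wild-type-line arrays. The wild-type minimum of each was the GFP array. The proteoglycan Epyc and the ligand Wnt4 behaved likewise (-2.41 (adjusted p = 0.0303) and -2.52 (adjusted p = 0.00545)), and the calls of Scara5, Cyp2f2 and Epyc ended without single null-line arrays (Scara5 -3.13 without untransduced and -2.78 without Suv420h1-GFP, Cyp2f2 -3.04 and -2.88, Epyc between -2.59 and -2.21 without any null-line array, LacZ, PREX2 wt or Q1430*). Without the Suv420h1-GFP array a further 653 genes had no overlap, 266 higher and 387 lower. The MAP kinase phosphatase Dusp4 was one, with 978, 792 and 566 on the null-line arrays, against 69.7 to 712 (median 107) on the wild-type-line arrays (log2 difference 2.07, SE 0.591, adjusted p = 0.0159), its call ending without the untransduced (1.89) or GFP null-line array (2.04). Mgst2 (-1.36 (adjusted p = 0.00882)), Cacna1g (-1.55 (adjusted p = 0.0061)) and Zfp185 (1.48 (adjusted p = 0.0309)) were others, the last losing its call without the untransduced (1.36) or GFP null-line array (1.21) or PREX2 wt (1.5).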

How the data were processed

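Total RNA of 9 cultures was labelled by 3' in vitro transcription and hybridised to Affymetrix arrays, per the labels' protocols. The values deposited by the authors are intensity signals per probe set on a linear scale. MAS5 is named in the submitters' processing notes, with no version. The mean after trimming 2% at each end was 500 on every array, as computed here. Of 45101 probe sets, 64 controls were left out. Signals were taken as log2(signal + 25) and tested where the mean over 9 arrays was at least 100 (19090 probe sets), with limma 3.58.1 in R 4.3.3 (2 line means, intensity trend, 7 residual degrees of freedom, Benjamini-Hochberg adjustment over all tested probe sets, threshold 0.05). The script was tested on simulated data. Each gene was read from its brightest probe set. Of 45037 probe sets, 34945 had 1 gene symbol, 932 several and 9160 none in GEO's platform annotation, and 34741 were matched to RefSeq (GRCm38.p6), used for names, chromosomes, gene order and promoters. The log2 gap is the lowest array of the higher line minus the highest of the lower. The number of arrays limits the precision, and a signal near background has no reliable size.

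Genes were named by rule: Kmt5a, Kmt5b, Kmt5c, Prex2 and Xist; the 15 widest gaps each way among called genes with a mean of at least 200 in the higher line; up to 4 called, non-overlapping members per gene list; genes at the edge of overlap; members of runs of neighbours; and up to 5 genes each whose overlap 1 array decides. Trp53 was not analysed here. Members and gene lists were chosen with earlier results of these data known, and a gene list counts only its tested members. A further gene list is not reported here. Exo5, Smap2, Rlf and the bounds Ror1 and Nfyc were chosen after values were seen. Alternatives were other offsets, signal limits, quantile normalization, array weights, no trend, construct-matched subsets, each array left out, and, added after seeing the data, 2 arrays left out and centring by chromosome or by 51 neighbouring genes.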

Additional observations from a re-analysis of the deposited data

Results flagged for a closer look

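Among the 154 named genes, 24 had an array of the wild-type line whose distance from its nearest neighbour took more of the line's range than Dixon's 95% critical value for 6 values allows. Chance flags about 1 in 20 groups, and groups of 3 such as the null line were not examined. The GFP array was the one standing apart for 18 of the 24. It was the lowest wild-type-line array for Efemp1 (18429.9), Casp12 (1307), Thy1 (1097), Ecscr (1049), Fkbp14 (698), Flrt3 (460.0), Prex2 (452), Akr1c13 (407), Kmt5b (295), Csf1r (294), Il13ra1 (222), Adam23 (192), Tubb3 (98.1), Serpinb6b (61.9), Cacna1g (48.4), Ctsf (5.65) and, at the edge of overlap, Zbtb33 (1489.8). It was the highest for Krt19 (374). For Thy1 and Efemp1 the GFP array still lay far above all null-line arrays.

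The E824* array was the highest of its line for Pla2g7 (23.0), Hoxc8 (18.2) and Arsj (11.1), all near background there. K278* was the lowest for S100a13 (2049). PREX2 wt was the lowest for Per1 (161) and Plac8 (18.7).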

How the results depend on the processing

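Counts of calls moved most with the arrays used. With the Suv420h1-GFP array against the 4 PREX2 arrays only, 4721 probe sets and 2587 genes were called and 7173 genes had no overlap. With the control-vector and null arrays only, 1834 probe sets and 1030 genes were called. Leaving out 1 array at a time gave 6466 to 9646 probe sets, 3489 to 5309 genes, 4281 to 5061 non-overlapping genes, 56 to 68 genes low in one line and 15 to 18 non-overlapping chromosomes; the lowest count of genes was without the null-line GFP array and the highest without the wild-type GFP array. With signal limits of 25 and 200, 20 genes were low in one line. The other settings kept the counts of genes within 1.5 times, from 3511 with 5 group means to 5856 without the wild-type GFP and K278* arrays, which was chosen after seeing the data. Quantile normalization moved the median of all genes to -0.05 and called 2050 genes higher and 2598 lower.

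Of 154 named genes, 94 kept call and direction under all 22 alternatives that tested them, some of which had fewer arrays or genes. The sign turned for Kmt5b, which was not called (0.0183 centred by chromosome, 0.14 by 51 neighbours, 0.22 with the control-vector and null arrays only, -0.14 to 0.083 with 1 array left out), for Kmt5c, also not called (0.25 and 0.19 under the 2 centrings, -0.11 to 0.030 with 1 array left out), and for Rplp2 (0.0045 centred by 51 neighbours). The cause was not tested. No paired analysis was possible because the labels give no replicate numbers that pair arrays across the lines. Signals under about 100 limit the size of folds for genes near background in one line.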

Other observations

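Arrays of the same line also differed from each other by chromosome, which no comparison above uses. The median log2 deviation of chromosome 18 was -0.294 on the Suv420h1-GFP array, against -0.154 on the untransduced and -0.152 on the GFP array of the null line. For chromosome 12 the 3 values were -0.194, -0.0877 and -0.0655, and for chromosome 16 they were 0.000698, 0.101 and 0.0936. In these chromosomes the Suv420h1-GFP array lay apart from the other 2 null-line arrays. In the wild-type line the GFP array read 0.0125 for chromosome 7, against 0.0911 to 0.126 on the other 5 arrays, and 0.0539 for chromosome 16, where the others lay between -0.0713 and -0.0147. DNA copy number was not measured, and whether these differences lie in DNA was not tested.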
